A study of Mus musculus with 6 samples.

Results

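Glucose, lactate and ketone bodies reach the CNS through carriers in its capillary endothelium. The 6 genes described here belong to that supply, namely the facilitative glucose carriers *Slc2a1* (GLUT1) and *Slc2a3* (GLUT3), the monocarboxylate transporter (MCT) family genes *Slc16a1*, *Slc16a4* and *Slc16a9*, and *Bsg*, which encodes basigin, the chaperone of MCT1. The genes were read from the deposited table by gene symbol, and all 6 of 6 were found among its 56748 genes, with no symbol repeated. The table holds estimated counts for endothelial cells (ECs) sorted by flow cytometry from spinal cords of mice at P16, 1 library per mouse. The 3 control mice carried the floxed *Tardbp* gene (genotype Tardbpflox), and the 3 TDP-43iΔEC mice carried the same allele with a tamoxifen-inducible Cre driven by the EC promoter of *Cdh5* (genotype Cdh5(PAC)-CreERT2;Tardbpflox). Tamoxifen (1 mg/mL) was given from P5 to P7 to all 6 mice, so that they shared the drug and the floxed allele and differed in Cre. The mice were a mixed group of males and females on a C57BL/6 background, deletion depends on cells that express *Cdh5*, and any cell that escaped it remains in the sorted sample.

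As background, GLUT1 lets glucose pass down its gradient and is the main glucose carrier of the blood-CNS barrier, while GLUT3 is best known as the carrier of neurons and of platelets. The protein of *Slc16a1*, MCT1, moves lactate, pyruvate and ketone bodies together with protons, and it reaches the plasma membrane only in a complex with basigin, a membrane glycoprotein with immunoglobulin domains that is also known as CD147. The *Slc16a4* and *Slc16a9* products belong to the same family but are less well characterized, and *Slc16a9* has been linked to carnitine transport. *Bsg* and *Slc2a1* are classical markers of barrier ECs, and basigin is also found on the membrane of erythroid cells.

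The start of each gene was taken from RefSeq promoters (build GRCm38.p6, 250 bases before the first transcribed base to 50 after), which matched 4 of the 6 genes. *Bsg* and *Slc2a3* had no entry. The promoters of the MCT gene with the lower adjusted p (*Slc16a4*), of the gene of MCT1 and of *Slc2a1* are shown because the first pair lay lower in TDP-43iΔEC mice and *Slc2a1* did not. Capitals mark matches, on either strand, to the TCF/LEF core that β-catenin acts through (CTTTGAT or CTTTGTT), the core bound by hypoxia-inducible factors (ACGTG or GCGTG), the E-box (CACGTG, which contains ACGTG), the GC box (GGGCGG) and the TATA box (TATAAA).

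Slc16a1, chr3:104638414-104638713, plus strand: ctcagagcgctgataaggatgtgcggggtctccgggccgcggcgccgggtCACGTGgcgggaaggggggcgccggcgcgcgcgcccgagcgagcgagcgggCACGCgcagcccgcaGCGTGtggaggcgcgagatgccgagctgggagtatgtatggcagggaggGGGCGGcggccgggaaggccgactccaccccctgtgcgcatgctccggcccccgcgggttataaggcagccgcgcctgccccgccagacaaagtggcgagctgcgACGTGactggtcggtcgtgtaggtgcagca

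Slc16a4, chr3:107290980-107291279, plus strand: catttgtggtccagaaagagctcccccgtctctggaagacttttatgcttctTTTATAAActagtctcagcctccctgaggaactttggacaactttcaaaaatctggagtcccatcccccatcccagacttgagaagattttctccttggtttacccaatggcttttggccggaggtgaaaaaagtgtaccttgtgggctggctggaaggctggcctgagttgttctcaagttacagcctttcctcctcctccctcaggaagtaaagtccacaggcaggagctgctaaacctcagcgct

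Slc2a1, chr4:119108495-119108794, plus strand: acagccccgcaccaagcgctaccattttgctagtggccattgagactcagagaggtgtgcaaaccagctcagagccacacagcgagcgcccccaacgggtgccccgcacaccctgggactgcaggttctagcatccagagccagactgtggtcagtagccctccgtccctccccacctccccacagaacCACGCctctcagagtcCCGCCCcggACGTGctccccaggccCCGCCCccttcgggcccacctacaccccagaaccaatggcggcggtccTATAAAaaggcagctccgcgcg

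The windows differed in composition. That of *Slc16a1* was 73.7% G and C with 42 CG dinucleotides, that of *Slc2a1* 65.3% with 18, and that of *Slc16a4* 49.3% with 3, against a median of 52.7% over the 32851 promoters of the table. The *Slc16a1* window held 1 E-box, whose first base lies 200 bases before the start, 5 matches to the hypoxia core (of which 2 are the E-box read on both strands) and 1 GC box. The *Slc2a1* window held 2 hypoxia cores, 2 GC boxes and a match to the TATA box letters that begins at transcribed base 29. The *Slc16a4* window held only a TATA box match, read on both strands as 2 overlapping matches. Its first base lies 198 bases before the start. None of the 4 members' windows, that of *Slc16a9* included, held the TCF/LEF core. Of all promoters in the table, 9.33% held the TCF/LEF core, 43.8% the hypoxia core, 7.15% the E-box, 35.7% the GC box and 13.6% the TATA box.

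TDP-43 binds UG repeats in RNA, so runs of 6 or more TG in a row on the sense strand were searched in each gene body in GRCm39. *Bsg* held 1 run of 40 bases, *Slc16a1* 1 of 26 and *Slc2a1* 1 of 50, *Slc2a3* held 8 and *Slc16a9* 10, and *Slc16a4* held none. Every run found in the members lay in an intron. The runs of the first 3 genes are printed with 10 bases on each side and the run in capitals.

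Bsg, chr10:79544260-79544299, plus strand: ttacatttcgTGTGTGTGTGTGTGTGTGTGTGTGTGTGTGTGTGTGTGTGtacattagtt

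Slc16a1, chr3:104547399-104547424, plus strand: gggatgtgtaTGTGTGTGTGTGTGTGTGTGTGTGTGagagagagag

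Slc2a1, chr4:118988281-118988330, plus strand: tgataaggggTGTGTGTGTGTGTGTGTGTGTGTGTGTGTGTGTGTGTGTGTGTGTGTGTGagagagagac

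Such runs are common, since 66.1% of 13060 tested genes with a GENCODE model held at least 1 (median span 22573 bases). *Slc16a4* (span 21333 bases), the member with the largest fold change past the threshold, is among those without a run.

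The libraries held 25704871 to 47270654 counts, and at this depth 3 counts correspond to 0.0617 to 0.116 CPM (counts scaled to a common library total after TMM, the trimmed mean of M values). The EC markers *Pecam1*, *Cldn5*, *Kdr*, *Flt1* and *Vwf* summed to 9696 to 13055 CPM in control and 8851 to 10351 CPM in TDP-43iΔEC mice. Among them, *Flt1* (log2 fold change -0.69, limma adjusted p = 0.0635) and *Kdr* (-0.26, limma adjusted p = 0.575) were lower in every TDP-43iΔEC library. *Pecam1*, *Cldn5* and *Vwf* overlapped between genotypes. *Tardbp*, the targeted gene, had 55.3, 61.9 and 58.5 CPM in control mice 1, 2 and 3 and 26.6, 16.1 and 11.8 CPM in TDP-43iΔEC mice. The groups did not overlap (log2 fold change -1.62, limma adjusted p = 0.287). Its counts cover the whole gene and not only the floxed exon, and exons of *Masp2*, which runs the other way, cover 33.1% of its exonic bases. In multidimensional scaling, control mouse 2 stood apart on the first dimension and TDP-43iΔEC mouse 1 on the second, and the fold changes of the tested members are given without each of them. Genotypes were compared with limma after the voom transformation over the 13107 genes that passed a filter on low counts, with Benjamini-Hochberg adjustment over all of them and a threshold of 0.05. Of the 6 genes, 5 passed the filter and *Slc2a3* did not. In bulk samples such as these, fewer cells of a type and less RNA per cell cannot be told apart.

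Of the 5 genes tested, *Bsg* and *Slc16a4* fell past the threshold in TDP-43iΔEC mice, and 0 rose. Over all genes, 0.137% were called in either direction and 0.107% were called lower. An unadjusted limma p under 0.05 was reached by 1215 of the 13107 genes tested, the background for the counts at that level given below. For *Bsg*, *Slc16a1* and *Slc16a4*, every TDP-43iΔEC library lay below every control library, which was the case for 7.93% of the genes tested, while 7.40% had every TDP-43iΔEC library above. The median log2 fold change of the 5 genes was -0.77, against -0.02 over all genes tested. The genes were chosen with earlier results of these data known, so these contrasts with all genes are descriptions only. *Slc2a1* and *Slc16a9* overlapped between genotypes.

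**Figure D1:**
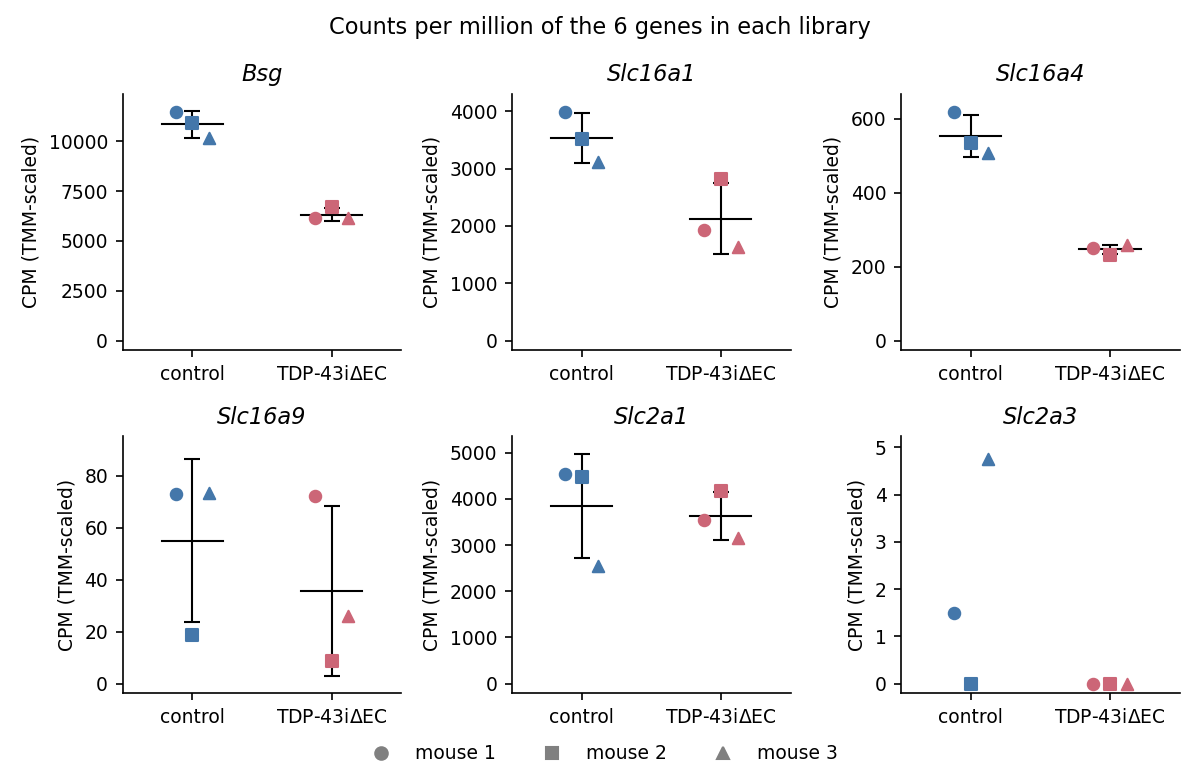
CPM (vertical axis, TMM-scaled, linear from 0) of the 6 genes in the 3 control and 3 TDP-43iΔEC libraries, with 1 symbol shape per mouse number. Lines and bars give the mean ± SD, left out for Slc2a3, which had 0 counts in 4 libraries. Bsg, Slc16a1 and Slc16a4 separate the genotypes, while Slc2a1 and Slc16a9 overlap.

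*Bsg* (ENSMUSG00000023175.16) spans chr10:79540143-79547821 of GRCm39 on the plus strand, with 8 exons in its canonical transcript. It had 11486, 10943 and 10147 CPM in control mice 1, 2 and 3 and 6164, 6681 and 6135 CPM in TDP-43iΔEC mice 1, 2 and 3. All 3 TDP-43iΔEC libraries lay well below the lowest control library, and the spread within each genotype was small. The means were 10859 ± 673 and 6327 ± 307 CPM (SD, n = 3 mice each), so that TDP-43iΔEC mice had 58.3% of the control level. The log2 fold change was -0.78 ± 0.07 (standard error, SE; limma adjusted p = 0.0119), and *Bsg* ranked 3 by p among the 13107 genes tested. No exon of another gene overlaps *Bsg*, and none of its transcripts shared 51 bases at 97% identity with another gene. Without control mouse 2 the log2 fold change was -0.78 (limma adjusted p = 0.0361). Without TDP-43iΔEC mouse 1 it was -0.76 (limma adjusted p = 0.176) and without TDP-43iΔEC mouse 3 it was -0.76 (limma adjusted p = 0.0714). The call was thus lost when either of these TDP-43iΔEC mice was left out. It was also lost without the filter on low counts (log2 fold change -0.83, limma adjusted p = 0.946) and under edgeR (adjusted p = 0.299). Scaling by library size only (limma adjusted p = 0.109) or to the EC markers (limma adjusted p = 0.240) lost it too. The 7 erythroid markers summed to 6935 to 10578 CPM in control and 2034 to 2885 CPM in TDP-43iΔEC mice, and 4 of the 6 tested, the globin genes *Hba-a1*, *Hba-a2*, *Hbb-bs* and *Hbb-bt*, fell past the limma threshold. Of the other erythroid markers, *Alas2* was lower in every TDP-43iΔEC library, at 65.7 and 14.1 CPM on average. Its log2 fold change of -2.22 did not pass (limma adjusted p = 0.360). The red cell membrane gene *Slc4a1* had 0 to 32 counts per library. Erythroid cells also express *Bsg*, and their part in its difference was not tested.

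The basigin-dependent transporter gene *Slc16a1* (ENSMUSG00000032902.2, chr3:104545811-104565780, plus strand, 5 exons) showed a mean difference of the same size with a wider spread. It had 3981, 3524 and 3111 CPM in control mice 1, 2 and 3 and 1924, 2819 and 1633 CPM in TDP-43iΔEC mice. The groups did not overlap, but TDP-43iΔEC mouse 2 came close to control mouse 3. The means were 3539 ± 435 and 2125 ± 618 CPM (SD, n = 3 mice each), or 60.1% of control. The log2 fold change was -0.77 ± 0.18 (SE, 95% interval -1.17 to -0.36), which did not pass the threshold (limma adjusted p = 0.262). It was -0.77 without control mouse 2 and -0.70 without TDP-43iΔEC mouse 1. Oligodendrocytes also express *Slc16a1*, and the 5 oligodendrocyte markers summed to 296 to 591 CPM in control mice and to 461, 53.9 and 15.5 CPM in TDP-43iΔEC mice 1, 2 and 3. Their part in the *Slc16a1* counts was not tested.

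*Slc16a4* (ENSMUSG00000027896.16, chr3:107198532-107219864, plus strand, 9 exons) encodes another transporter of the family, and its transcript fell most among the members past the threshold. It had 617, 533 and 508 CPM in the 3 control mice and 249, 232 and 258 CPM in the 3 TDP-43iΔEC mice. The TDP-43iΔEC libraries were nearly equal to each other, and the groups lay far apart. The means were 552 ± 56.9 and 246 ± 13.0 CPM (SD, n = 3 mice each), or 44.6% of control. The log2 fold change was -1.16 ± 0.16 (SE, limma adjusted p = 0.0356). Without control mouse 2 the log2 fold change was -1.19 and without TDP-43iΔEC mouse 1 it was -1.18. With any 1 mouse left out it was between -1.22 and -1.08, with a limma adjusted p between 0.0637 and 0.319, so that no such fit called it. Neither *Slc16a1* nor *Slc16a4* has exons that overlap another gene or sequence shared with another transcript.

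*Slc16a9* (ENSMUSG00000037762.7, chr10:70080914-70121798, plus strand, 6 exons) was the lowest of the 3 MCT family members and the most variable. It had 72.8, 18.8 and 73.5 CPM in control mice 1, 2 and 3 and 72.0, 8.86 and 25.9 CPM in TDP-43iΔEC mice. In each genotype mouse 2 was the lowest, and TDP-43iΔEC mouse 1 stood at the level of control mice 1 and 3. The log2 fold change was -0.66 with an SE of 0.82 (95% interval -2.51 to 1.19, limma adjusted p = 0.814), and its size rested on single mice. It was -1.33 without control mouse 2, -1.72 without TDP-43iΔEC mouse 1 and 0.07 without TDP-43iΔEC mouse 2, and -1.50 with sample quality weights, with *Slc16a9* past the threshold in none of these fits. Antisense exons of *Gm66806* and *Gm7097* cover 13.9% of its exonic bases, with up to 278 bases shared at 97% identity or more. Since the counting did not use strand, reads of these genes may be included, and their share of the counts is not known.

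*Slc2a1* (ENSMUSG00000028645.12, chr4:118965908-118996365, plus strand, 10 exons) did not separate the genotypes. It had 4533, 4470 and 2556 CPM in control mice 1, 2 and 3 and 3540, 4177 and 3149 CPM in TDP-43iΔEC mice. The lowest and the highest of the 6 values both came from control mice. The means were 3853 ± 1124 and 3622 ± 519 CPM (SD, n = 3 mice each). This gave a log2 fold change of -0.04 ± 0.22 (SE, limma adjusted p = 0.964). The 95% interval, -0.53 to 0.45, still holds changes of moderate size in either direction. Without control mouse 3, which had the lowest value, the log2 fold change was -0.32 (limma adjusted p = 0.557, unadjusted limma p under 0.05). Every TDP-43iΔEC value lay below those of control mice 1 and 2, so the overlap rested on control mouse 3. The log2 fold change was 0.08 without control mouse 2 and -0.03 without TDP-43iΔEC mouse 1. Its sign turned positive when libraries were scaled by total counts alone (0.14) or to the EC markers (0.18), both of which raise the median of all genes. An antisense exon of *Gm12868* covers 5.31% of its exonic bases.

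*Slc2a3* (ENSMUSG00000003153.11, chr6:122704768-122778599, minus strand) was nearly absent. It had 64, 0 and 207 counts in control mice 1, 2 and 3 (1.49, 0 and 4.75 CPM) and 0 counts in each of the 3 TDP-43iΔEC libraries, where 3 counts would equal 0.0617 to 0.116 CPM. Since control mouse 2 also had 0 counts, the groups overlapped, and the gene was below the filter for testing. The 6 neuron markers examined summed to 5.13, 10.3 and 12.0 CPM in control mice and to 2.00, 3.21 and 1.93 CPM in TDP-43iΔEC mice. The markers did not move together. *Map2* had 9.56 CPM in control mouse 2 and 0 in every other library. *Rbfox3* was higher in every TDP-43iΔEC library (0.864, 0.514 and 1.93 CPM, against 0.0466, 0 and 0 in control). The part of neurons in the *Slc2a3* counts was not tested. Transcripts of *Slc2a3* share at least 51 bases at 97% identity with those of 21 other genes, so counts this low are also uncertain.

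Per kilobase of exon, which allows a comparison between genes, *Bsg* was highest in every library, at 3910 ± 242 CPM per kb in control mice and 2278 ± 111 in TDP-43iΔEC mice (SD, n = 3 each). *Slc2a1* followed at 821 ± 240 and 772 ± 111 CPM per kb, and *Slc16a1* at 669 ± 82.4 and 402 ± 117. In control mice these neighbours did not differ beyond their spread, since *Slc2a1* ranged from 545 to 966 and *Slc16a1* from 589 to 753 CPM per kb. In TDP-43iΔEC mice their ranges were apart, at 671 to 890 and 309 to 533 CPM per kb. *Slc16a4* came next at 128 ± 13.2 and 57.0 ± 3.01 CPM per kb, then *Slc16a9* at 13.4 ± 7.61 and 8.63 ± 7.93. Among 13060 tested genes with an exon length, the mean over all libraries put *Bsg* at rank 10, *Slc2a1* at 29, *Slc16a1* at 48, *Slc16a4* at 338 and *Slc16a9* at 2585.

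To relate the transporters to the chaperone, their counts were divided by those of *Bsg* in the same library, a ratio that does not depend on how libraries are scaled. *Slc16a1* counts amounted to 34.7%, 32.2% and 30.7% of *Bsg* counts in control mice 1, 2 and 3 and to 31.2%, 42.2% and 26.6% in TDP-43iΔEC mice. The control values lay inside the range of the TDP-43iΔEC values, and the mean log2 ratio differed by 0.01 (-1.62 ± 0.09 against -1.61 ± 0.34, SD, n = 3 each, exact permutation test, p = 0.9). *Slc16a4* counts amounted to 5.37%, 4.87% and 5.01% of *Bsg* counts in control mice and to 4.05%, 3.47% and 4.20% in TDP-43iΔEC mice. Each TDP-43iΔEC value was below each control value, with a difference of -0.38 in the log2 ratio. *Slc2a1* counts amounted to 39.5%, 40.9% and 25.2% of *Bsg* counts in control mice and to 57.4%, 62.5% and 51.3% in TDP-43iΔEC mice. Here each TDP-43iΔEC value was above each control value, with a difference of 0.73 in the log2 ratio. For both *Slc16a4* and *Slc2a1* the 2-sided exact permutation test gave p = 0.1 (0.25 adjusted over the 5 ratios), the smallest p that 3 against 3 mice allow. *Slc16a9* ranged from 0.172% to 0.724% and from 0.133% to 1.17% of *Bsg* counts (difference in log2 ratio -0.09, exact permutation test, p = 1.0), and for *Slc2a3*, at 0 in 4 libraries, the ratio carries no information (p = 0.4, exact permutation test).

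**Figure D2:**
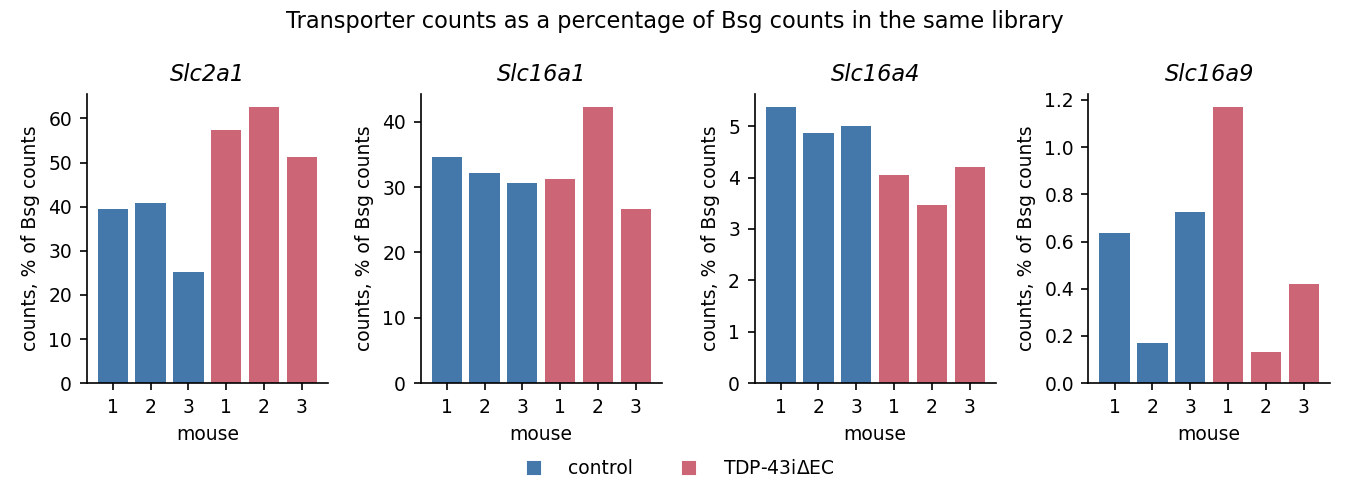
Counts of 4 transporter genes as a percentage of Bsg counts in the same library (vertical axes, linear from 0), for mice 1 to 3 of each genotype (horizontal axis). Slc2a1 is higher relative to Bsg in every TDP-43iΔEC library (51.3% to 62.5%) than in every control library (25.2% to 40.9%), Slc16a4 is lower, and Slc16a1 overlaps.

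Per kilobase, the 3 MCT family members together had 913, 794 and 724 CPM per kb in control mice and 439, 589 and 375 CPM per kb in TDP-43iΔEC mice. Relative to *Bsg*, this sum was 20.7% ± 1.22 in control mice and 20.4% ± 3.80 in TDP-43iΔEC mice (SD, n = 3 each, exact permutation test, p = 0.8). The transporter sum was thus lower in each TDP-43iΔEC mouse than in each control mouse, while its proportion to *Bsg* overlapped. Most of the sum was *Slc16a1*, at 669 of 811 CPM per kb on average in control and 402 of 468 in TDP-43iΔEC mice. The sum therefore mainly repeats the *Slc16a1* ratio, and does not show the lower *Slc16a4* ratio given above.

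Neither of the other MCT chaperone genes passed the test. *Nptn* (neuroplastin), the closer relative of basigin, averaged 137 and 103 CPM in control and TDP-43iΔEC mice, a log2 fold change of -0.39 ± 0.32 (SE, limma adjusted p = 0.708). *Emb* (embigin) had 73 to 91 counts in control and 43 to 289 counts in TDP-43iΔEC mice. Of these 2 genes, 0 passed the limma threshold and 0 had an unadjusted p under 0.05, and groups overlapped for both.

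Of the 11 other *Slc16a* genes, 5 could be tested and 0 passed the threshold (1 at an unadjusted limma p under 0.05). *Slc16a3* (MCT4), a lactate exporter of glycolytic cells, had 27, 0 and 32 counts in the control libraries against 286, 91 and 10 in the TDP-43iΔEC libraries. *Slc16a7* (MCT2), the neuronal lactate carrier, had 11 counts in control mouse 3 and 0 in the other 5 libraries. *Slc16a6*, *Slc16a12* and *Slc16a13* overlapped between genotypes, with limma adjusted p from 0.677 to 0.936. Exons of other genes overlap 44.1% of the exonic sequence of *Slc16a3*, 39.8% of that of *Slc16a6* and 42.7% of that of *Slc16a13*, so these counts are uncertain.

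Of the 10 other *Slc2a* genes, 5 could be tested and 0 passed the threshold (0 at an unadjusted limma p under 0.05). *Slc2a8*, an intracellular hexose carrier, was the highest at 22.2 and 16.5 CPM, far below *Slc2a1*. The insulin-responsive *Slc2a4* had 0 counts in every library. *Slc2a10* had 46, 0 and 0 counts in control mice against 825, 224 and 2 in TDP-43iΔEC mice, and *Slc2a12* had 58, 0 and 0 against 505, 121 and 0. In both, TDP-43iΔEC mouse 1 held most of the counts, and the groups overlapped.

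Among other carriers of sugars and monocarboxylates, only the mitochondrial pyruvate carrier subunits *Mpc1* and *Mpc2* were expressed well enough to be tested. Their log2 fold changes were -0.53 and -0.57 (SE 0.21 and 0.30, limma adjusted p = 0.511 and 0.580), with every TDP-43iΔEC library below every control library. Antisense exons cover 35.5% of the exonic bases of *Mpc1* and 12.3% of those of *Mpc2*. Of the 6 genes of ketone body use, 4 were tested and 0 passed the threshold (2 at an unadjusted limma p under 0.05). *Acat1*, the acetoacetyl-CoA thiolase, had 68.4 and 30.6 CPM on average in control and TDP-43iΔEC mice, without overlap (log2 fold change -1.32, limma adjusted p = 0.360).

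The 17 genes of glycolysis and lactate metabolism had a median log2 fold change of 0.13 over 16 tested, with 0 past the threshold and 3 at an unadjusted limma p under 0.05. Over all genes, 1215 of 13107 had such a p. *Pfkp*, a phosphofructokinase, was higher in every TDP-43iΔEC library (71.4 and 153 CPM on average, log2 fold change 1.12, limma adjusted p = 0.196), as was *Aldoa* (log2 fold change 0.47), of which other genes overlap 43.8% of the exonic sequence. *Eno1* and the lactate dehydrogenase gene *Ldhb* were lower in every TDP-43iΔEC library (log2 fold changes -0.46 and -0.54). The lactate dehydrogenase gene *Ldha* overlapped, at 611 and 712 CPM on average. Of 14 regulators of these transporters, 11 were tested and 0 passed (2 at an unadjusted limma p under 0.05). *Sgk1*, a kinase known to raise the surface level of GLUT1, had 276 and 574 CPM on average without overlap (log2 fold change 1.08 ± 0.19 SE, limma adjusted p = 0.126). *Epas1*, the hypoxia-inducible factor HIF-2α, was lower in every TDP-43iΔEC library (log2 fold change -0.39, limma adjusted p = 0.391). *Txnip*, whose product promotes removal of GLUT1 from the membrane, averaged 309 and 312 CPM, and *Hif1a* 145 and 163 CPM.

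The transporters were set beside 17 other solute carriers of the barrier, which are not carriers of sugars or monocarboxylates. Of these, 1 passed the limma threshold, and 11 of 17 had every TDP-43iΔEC library below every control library, against 7.93% of all genes tested. Their median log2 fold change was -0.64, and 16 of 17 were negative. This list was also chosen with earlier results of these data known, so its contrast with all genes is a description only. The gene that fell was *Slco1c1*, a thyroid hormone carrier (log2 fold change -0.86 ± 0.12 SE, limma adjusted p = 0.0342). This call was lost with any 1 mouse left out (limma adjusted p from 0.0637 to 0.132), under edgeR (adjusted p = 0.292), with scaling by library size only (limma adjusted p = 0.153) and with scaling to the EC markers (limma adjusted p = 0.405), while the log2 fold change of Slco1c1 stayed negative in these fits. The lowest log2 fold change of the list was that of the organic anion carrier *Slc22a8*, at 1694 and 685 CPM on average (-1.29, limma adjusted p = 0.170), followed by *Slc35f2* (-0.90) and the lysolipid carrier *Mfsd2a* (-0.86), none of which passed. *Slc2a1*, at -0.04, lay with *Slc1a4* (-0.07) and *Slco2b1* (0.05) at the end of this list with the least difference.

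**Figure D3:**
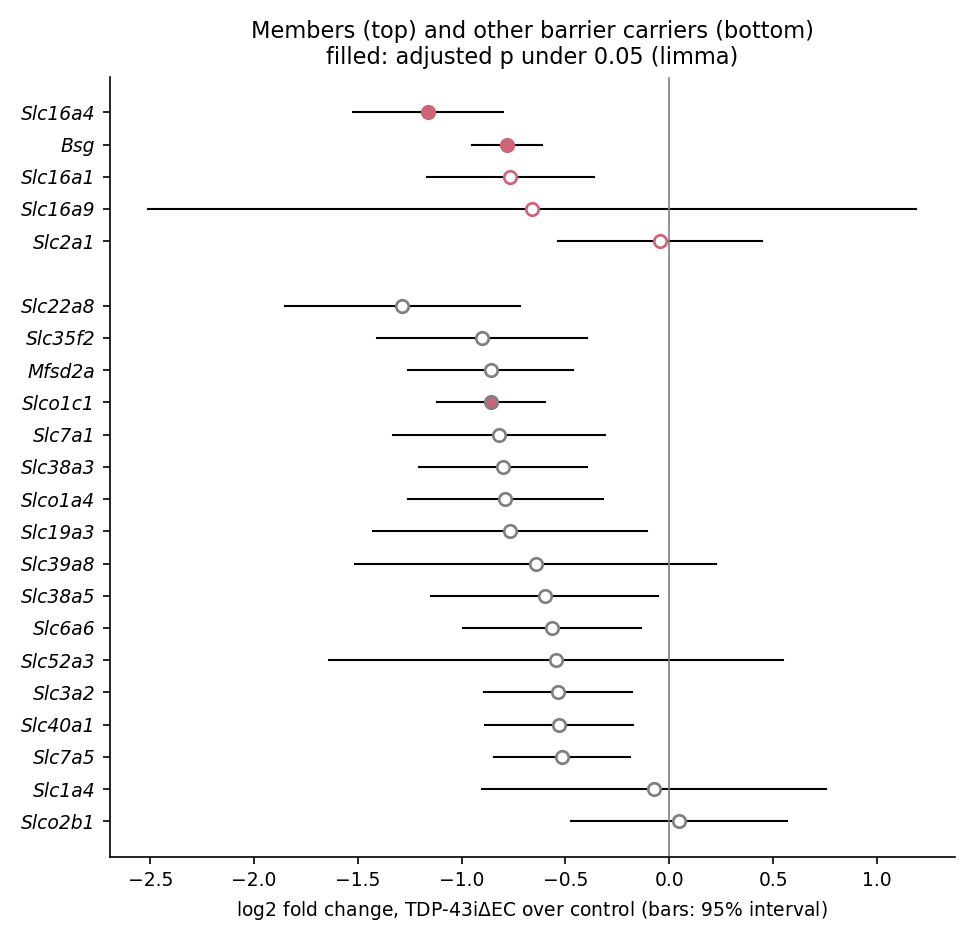
Log2 fold change of TDP-43iΔEC over control mice (horizontal axis) for the 5 tested members (upper block) and 17 other barrier solute carriers (lower block), with bars for the 95% interval of the limma fit. Filled symbols have an adjusted p under 0.05. Bsg and Slc16a4 are filled, and Slc2a1 lies at -0.04 with an interval from -0.53 to 0.45.

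Beside the erythroid, oligodendrocyte and neuron markers given above, markers of other cells were summed in control and TDP-43iΔEC mice. Mural cell genes summed to 522 to 890 CPM and 392 to 925 CPM. The sums of the astrocyte genes were 16.7 to 29.5 and 0.501 to 25.6 CPM, those of the fibroblast genes 17.2 to 25.0 and 2.20 to 20.9 CPM, those of the microglia and macrophage genes 0 to 1.95 and 0.226 to 8.14 CPM, and those of the platelet and leukocyte genes 2.34 to 9.19 and 0.391 to 15.7 CPM, with *Adgre1* at 0 in every library.

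The fold changes were also compared across the alternatives tried. The differences of *Bsg*, *Slc16a1* and *Slc16a4* were negative under all of the 10 other fits and with each of the 6 mice left out, whereas the sign of *Slc2a1* varied. Relative to the median of all genes, the log2 fold change of *Bsg* lay between -0.79 and -0.66 over the 10 other fits, that of *Slc16a1* between -0.76 and -0.61, that of *Slc16a4* between -1.17 and -1.09 and that of *Slc2a1* between -0.09 and 0.18. Of these 10 fits, 6 called *Bsg* and 5 called *Slc16a4*, with 0 calls of either by edgeR (unadjusted p under 0.05 for 3 of the 5 genes).

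**Figure D4:**
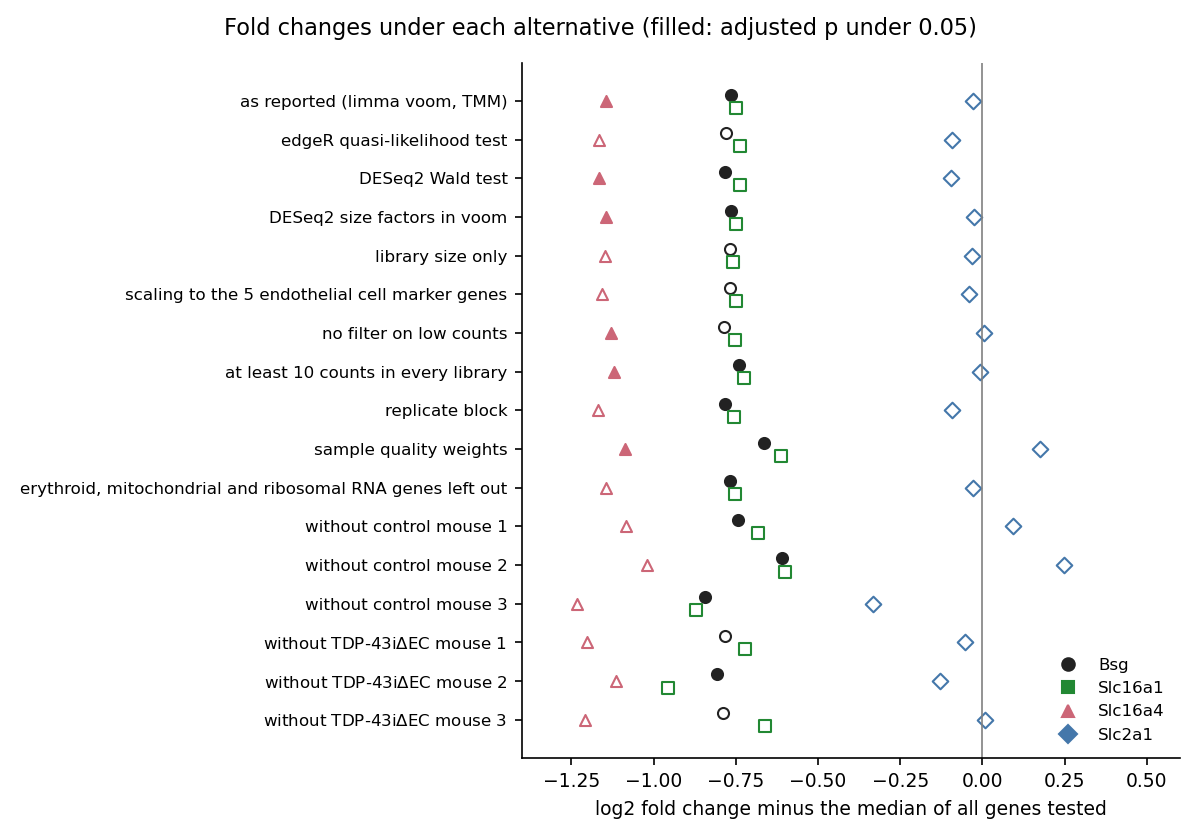
Log2 fold change of TDP-43iΔEC over control mice minus the median of all genes tested (horizontal axis) for 4 genes under each fit (vertical axis). Filled symbols have an adjusted p under 0.05. Symbols of Bsg and Slc16a1 are shifted up and down to keep both visible. Bsg, Slc16a1 and Slc16a4 lie below 0 in every fit and Slc2a1 lies on both sides of 0, and Bsg and Slc16a4 are filled in some fits and open in others.

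Over the 6 libraries, the genes whose log2 CPM followed *Bsg* most closely, among 4330 other genes of sufficient level, were the carbonic anhydrase gene *Car4* (Pearson r = 0.994), the peptidase gene *Dpp4* (r = 0.992) and the Fc receptor gene *Fcgrt* (r = 0.988), which had log2 fold changes of -0.94, -1.86 and -1.18. *Slc16a1* was followed most closely by *Oxa1l* (r = 0.991), *Prkar1a* (r = 0.989) and *Clcn7* (r = 0.983), each lower in every TDP-43iΔEC library. Those nearest to *Slc2a1* were *Ndel1* (r = 0.983), *Atad1* (r = 0.975) and *Cab39l* (r = 0.965), with log2 fold changes of 0.04, 0.03 and -0.16. The points share their libraries and scaling, and the correlations are descriptions only.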

How the data were processed

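Bulk RNA-Seq libraries (SMARTseq2, which does not mark strand) of sorted spinal cord ECs from 3 control and 3 TDP-43iΔEC mice were analysed. Per the methods and the labels, the authors aligned the reads with STAR (2.7.8a) to GRCm39 with the GENCODE annotation and estimated gene counts with RSEM (1.3.0). The deposited values are these expected counts per gene, not normalized. They were read here as whole numbers, so that any fraction was dropped. Each library is a mouse, and no 2 libraries agreed within counting noise.

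Genes were filtered with filterByExpr, scaled by TMM (edgeR 4.0.16) and compared with limma voom (limma 3.58.1, R 4.3.3), with Benjamini-Hochberg adjustment over all 13107 tested genes and a threshold of 0.05. The study's methods name limma with voom, and the filter and scaling were chosen here. The pipeline was tested on simulated data. CPM are TMM-scaled counts, and CPM per kb divides them by the exon union of GENCODE M39 (98.7% of IDs matched). Ratios to *Bsg* used log2 with 0.5 added to each count and exact permutation tests. With 3 against 3 mice these cannot give a p below 0.1. Library totals of 25704871 to 47270654 counts limit the precision of genes near 3 counts. Alternatives were edgeR's quasi-likelihood test, DESeq2 (1.42.0), other scalings and filters, sample weights, the replicate block and each mouse left out. No sign of pairing by replicate number was found.

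The members and the gene lists were chosen with earlier results of these data known. Named genes are the 6 members, *Tardbp*, of each list the genes past the threshold and up to 3 others with the largest log2 fold change whose groups do not overlap, tested genes of the *Slc2a*, *Slc16a* and chaperone lists, and the 3 genes with the highest Pearson r with *Bsg*, *Slc2a1* and *Slc16a1* at a mean log2 CPM of at least 5. *Eno1*, *Ldha*, *Txnip*, *Hif1a*, *Slc1a4*, *Slco2b1*, *Slc2a4*, *Slc16a7*, *Alas2*, *Slc4a1*, *Map2*, *Rbfox3* and *Adgre1* were added after their values were seen. Results for 2 list genes are not reported here.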

Additional observations from a re-analysis of the deposited data

How the results depend on the processing

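The fold changes of *Bsg*, *Slc16a1* and *Slc16a4* stayed negative under every alternative fit run, while calls varied. Of the 5 members tested, 2 were past the threshold among 18 of all genes. Under edgeR's quasi-likelihood test the counts were 0 members and 0 genes (848 genes and 3 members at an unadjusted p under 0.05), under DESeq2's Wald test 2 and 250, with scaling by library size only 0 and 10 (1295 genes and 3 members at an unadjusted p under 0.05 by limma), with scaling to the 5 EC markers 0 and 1 (1206 genes and 3 members at an unadjusted p under 0.05 by limma), without a filter on low counts 1 (*Slc16a4*) and 76, with at least 10 counts in every library 2 and 39, and at an adjusted p under 0.1 the counts were 2 and 31. With erythroid, mitochondrial and ribosomal RNA genes left out the limma counts were 1 (*Bsg*) and 13. The cause of these shifts was not tested. Scaling by library size only moved the median log2 fold change of all genes by 0.19, to 0.18, and scaling to the EC markers by 0.24, to 0.23.

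Leaving out 1 mouse at a time gave 0 to 1 members (3 to 4 at an unadjusted limma p under 0.05) and 0 to 13 genes. The count was 0 of all genes without TDP-43iΔEC mouse 1 (960 at an unadjusted limma p under 0.05), 2 without TDP-43iΔEC mouse 3 and 3 without control mouse 1 or TDP-43iΔEC mouse 2, with fewer samples in each fit. With replicate number as a block, 1 member (*Bsg*, adjusted p = 0.00317 by limma) and 22 genes passed, and *Slc16a4* had an adjusted p of 0.0532. The deviations of same-numbered mice correlated at -0.07, -0.13 and -0.02, which gave no sign of pairing by number. With 3 mice per group this cannot exclude a pairing. Under the block the ratios to *Bsg* kept their means, with a smallest exact sign-flip p of 0.25. With 1 mouse left out, the difference in the log2 ratio of Slc2a1 to Bsg ranged from 0.50 (without control mouse 3) to 0.85, and that in the log2 ratio of Slc16a4 to Bsg from -0.44 to -0.30.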

Other observations

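The ratio of *Slc2a1* to *Slc16a1*, chosen after its values were seen, sets the glucose carrier against the lactate carrier without reference to scaling or to *Bsg*. It was 1.14, 1.27 and 0.822 *Slc2a1* counts per *Slc16a1* count in control mice 1, 2 and 3, against 1.84, 1.48 and 1.93 in TDP-43iΔEC mice. The means were 1.08 ± 0.230 and 1.75 ± 0.236 (SD, n = 3 each), with every TDP-43iΔEC value above every control value. It is given as a description and was not tested.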
